A study of Rattus norvegicus with 8 samples.

Results

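Immune and inflammatory response genes were followed in cultured cells from the rat nucleus pulposus, which forms the soft centre of the intervertebral disc. A gene was a member when a GO term of its row in the authors' table held the words inflammatory response, immune response or lipopolysaccharide. Genes with a term naming sequence-specific DNA binding, extracellular matrix, lysosomes or autophagy were left out, as were 16 genes left out by name, among them Tlr2, Il6, Il1b and Ccl2. Of 4226 genes in the table, 150 were members, and 146 of these were protein-coding. Terms with inflammatory response were held by 54 members, terms with immune response by 89 and terms with lipopolysaccharide by 38. These annotations mark a gene's known involvement in a response and do not give the direction in which it acts.

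All cells had their own SOD1, the cytosolic copper-zinc superoxide dismutase, knocked down. They were then transfected with wild-type SOD1 (SOD1-WT, 4 libraries) or with SOD1 carrying the K123R substitution, a lysine changed to arginine (SOD1-K123R, 4 libraries), and both groups are labelled as kept in 10 mM lactate for 7 days. The comparison asks what the substitution does to expression under lactate. In the table the SOD1-WT columns carry the name Ctrl, as their sample titles do, and the SOD1-K123R columns carry the name L. What L stands for is not explained, and if it marks lactate, treatment and substitution cannot be told apart. Library identifiers run consecutively within each group, so library order and group cannot be told apart either. The level of Sod1 was not analysed here. The strain, sex and age of the animals, the means of knockdown and whether replicates came from separate cultures are not stated, so the spread behind each p-value may be no more than technical.

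In cells outside the immune system, receptors for microbial and damage signals, such as the Toll-like receptors, act through adapters and kinases to switch on NF-kB, MAP kinases and interferon regulatory factors. The products include cytokines and chemokines that recruit leukocytes, and also inhibitors such as A20 and tristetraprolin that end the signal. Disc cells are known to make such factors, and inflammatory signalling in the nucleus pulposus is a known feature of disc degeneration. Lipopolysaccharide, a wall component of Gram-negative bacteria, is the standard experimental trigger, so its terms gather both sensors and responding genes.

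The values are TPM, a relative transcript abundance scaled for transcript length, and so can be compared between genes. The rows of the table sum to 187515 to 198656 TPM a library in SOD1-WT and 235371 to 243393 TPM in SOD1-K123R, without overlap. They are thus part of the transcriptome, and how they were selected is not stated. The 2890 genes averaging 1 TPM or more were compared with limma on log2(TPM + 1), SOD1-K123R minus SOD1-WT. To pass, a gene needed a p under 0.05 after Benjamini-Hochberg adjustment over these 2890. Depth cannot be recovered from TPM, so no counting interval is given. Correlations of log2(TPM + 1) across genes were 0.981 to 0.994 between libraries of a group and 0.788 to 0.818 between groups. Of 16 leukocyte markers only Cd68 and Lyz2 were in the table, with summed levels of 5.44 to 8.04 TPM in SOD1-WT and 23.4 to 30.9 TPM in SOD1-K123R, of which Lyz2 made at most 1.08 TPM. The endothelial markers Tie1 and Pecam1 stayed under 0.5 TPM in every library. Of 16 nucleus pulposus and chondrocyte-like markers 5 were in the table and moved both ways. Cd24 rose from 10.1 to 31.2 TPM and Sox9 from 0.400 to 3.19 TPM, Cdh2 fell from 9.43 to 2.96 TPM and Acan from 1.55 to 0.645 TPM, and Col2a1, the main collagen of this tissue, read at most 0.08 TPM. Acta2, a smooth muscle and myofibroblast marker, fell from 1429 to 434 TPM. Of the other pericyte and smooth muscle markers tested, Myh11 fell from 9.38 to 1.62 TPM and Mcam rose from 8.20 to 25.9 TPM. Of 3 fibroblast markers Dcn rose while Col3a1 and Dpt fell. The part of these markers in the results was not tested.

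Members moved in both directions, and most passed, as did most genes of the table. Of the 113 members tested, 58 rose (51.3%, against 44.6% of all genes tested) and 46 fell (40.7%, against 51.1%) in SOD1-K123R cells. Together 92.0% passed, against 95.7% of all genes tested, and a pass is therefore no mark of these genes. The 44.6% and 51.1% of all genes tested are the shares to set beside each count of a list given below. The median log2 fold change was 0.39 over the members tested and -0.49 over all genes tested. Among genes averaging 5 TPM or more these medians were 0.65 and 0.27, so the sign for all genes depends on the filter. At least 2-fold increases were reached by 24 of the 113 members tested, against 26.0% of all genes tested. Decreases of that size were reached by 34 of the 113, against 35.8% of all genes tested. Groups did not overlap for 96 members (85.0%, against 91.4% of all genes tested). With no filter on low values, 69 of all 150 members rose, 62 fell and 19 did not pass. The remaining 37 members lay below 1 TPM on average, and 15 tested members had 1 group under that level, 9 of them SOD1-K123R. Scaling the libraries by median of ratios moved the median log2 fold change of all genes by 0.35, and quantile normalization moved it by 0.24. A fold change near these sizes therefore depends on the scaling.

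**Figure D1:**
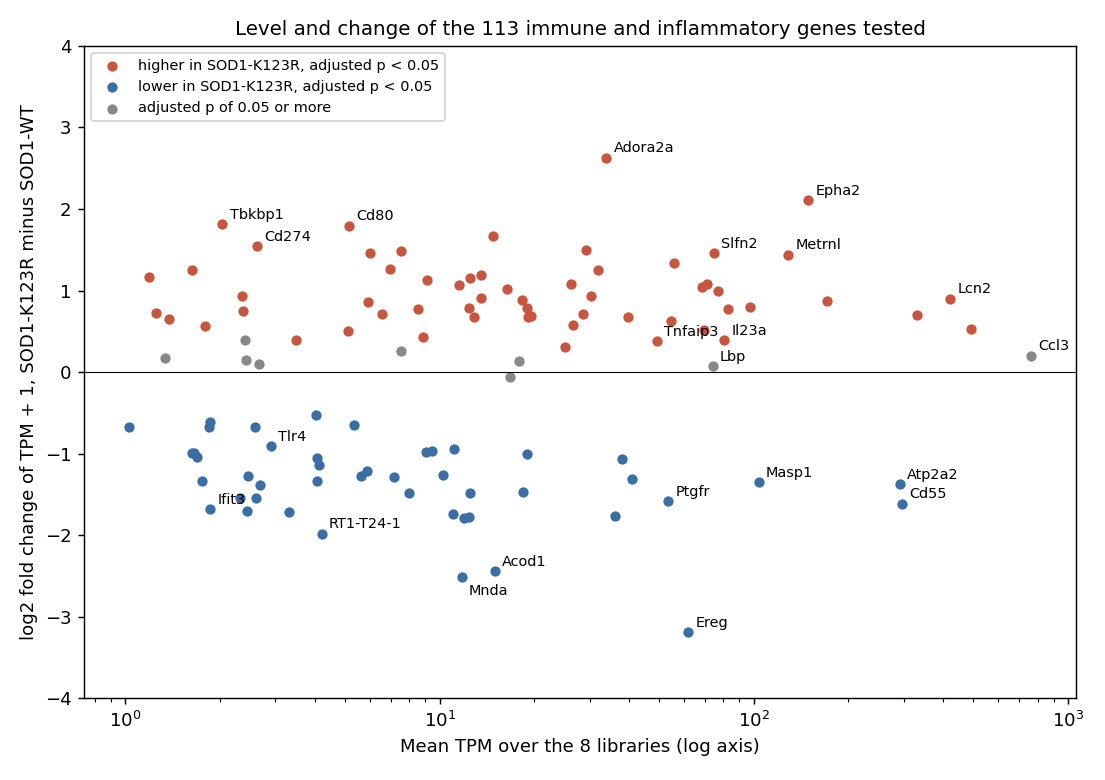
Mean TPM over the 8 libraries (x axis, log scale) and log2 fold change of TPM + 1, SOD1-K123R minus SOD1-WT (y axis), for the 113 members tested, 1 point per gene. Points run from -3.19 for Ereg to 2.63 for Adora2a, and Ccl3, the most abundant member, lies near 0.

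Adora2a, an adenosine receptor that raises cyclic AMP and restrains inflammatory signalling, had the largest increase in log2(TPM + 1). It read 8.49, 8.48, 7.88 and 10.1 TPM in the SOD1-WT libraries and 59.7, 55.02, 62.7 and 59.1 TPM in the SOD1-K123R libraries. Every SOD1-K123R library stood far above every SOD1-WT library, a 6.77-fold difference of the means (log2 fold change 2.63, SE 0.10, adjusted p = 3.02e-10). With a pseudocount of 0.1 the increase of Tbkbp1, a gene of low level described further on, was larger, with log2 fold changes of 3.11 for Tbkbp1 and 2.75 for Adora2a. Epha2, a receptor tyrosine kinase for ephrin-A ligands on neighbouring cells, read 57.6, 51.96, 56.96 and 55.6 TPM and 237, 236, 246 and 252 TPM. The libraries of each group lay close together and the groups were well apart (log2 fold change 2.11, SE 0.07, adjusted p = 2.09e-10). Sema7a, a membrane-anchored semaphorin that signals through integrins, rose from 6.58 ± 0.553 to 23.1 ± 1.05 TPM (mean ± SD over the 4 libraries of a group, as for every TPM printed with an error). Slfn2, a Schlafen protein known for keeping T cells quiescent, rose from 39.5 ± 3.80 to 109.9 ± 3.17 TPM. Metrnl, a secreted meteorin-like protein with anti-inflammatory activity, rose from 68.9 ± 4.20 to 189 ± 17.4 TPM. None of these 5 genes had overlapping groups, which the rule that picked them required.

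The largest decrease was that of Ereg, epiregulin, an EGF-family growth factor that activates EGF receptors. It read 85.7, 121, 139 and 104 TPM in SOD1-WT and 13.2, 12.2, 11.9 and 8.20 TPM in SOD1-K123R. All SOD1-WT libraries stood several-fold above every SOD1-K123R library, and the means differed 9.89-fold (log2 fold change -3.19, SE 0.16, adjusted p = 3.19e-09). Mnda, a nuclear protein of the interferon-inducible PYHIN family, fell from 20.7 ± 4.69 to 2.77 ± 0.608 TPM. Acod1, the enzyme that makes the anti-inflammatory metabolite itaconate, read 25.7, 26.6, 23.8 and 28.1 TPM and 4.21, 4.32, 3.86 and 3.51 TPM. Its groups were narrow and separate (log2 fold change -2.44, SE 0.10, adjusted p = 9.38e-10).

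Several of the other large decreases were genes best known outside immunity. Angpt1, angiopoietin 1, a ligand of the vascular receptor Tie2, fell from 19.2 ± 6.11 to 4.66 ± 0.750 TPM. Pbk, a mitotic kinase, fell from 19.8 ± 6.05 to 4.92 ± 0.114 TPM, with 5.08, 4.86, 4.82 and 4.91 TPM in the SOD1-K123R libraries, a spread far narrower than the 14.8 to 28.5 TPM of SOD1-WT. Dbnl, an actin-binding adapter of the drebrin family, fell from 56.4 ± 8.78 to 15.9 ± 2.62 TPM. Casp9_v1, the table's name for a divergent form of caspase 9, fell from 17.5 ± 2.62 to 4.57 ± 1.15 TPM. Atp2a2, the calcium pump SERCA2 of the endoplasmic reticulum, is abundant and fell from 421 ± 59.1 to 161 ± 9.58 TPM, and Akap12, a scaffold for protein kinase A, fell from 18.8 ± 1.44 to 6.13 ± 0.786 TPM. Both are members through a term for a response to lipopolysaccharide.

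**Figure D2:**
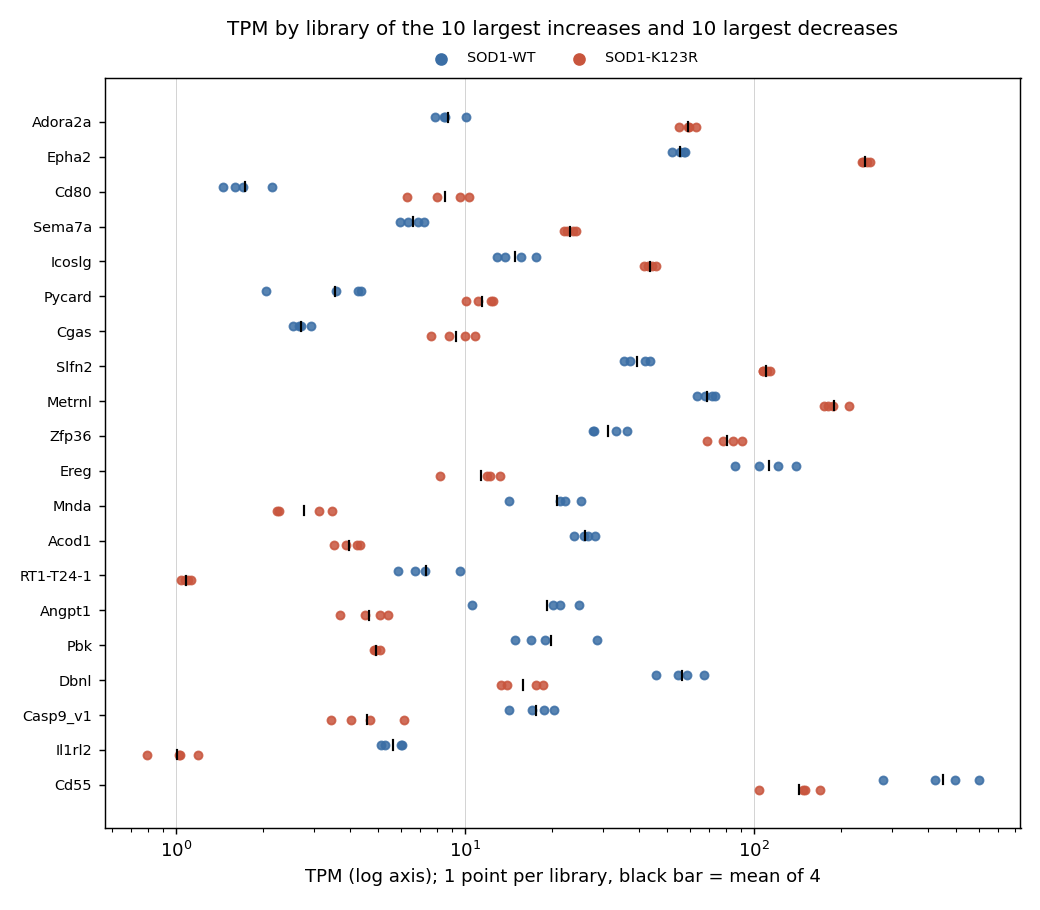
TPM by library (x axis, log scale) for the 10 members with the largest increases and the 10 with the largest decreases. By rule these were taken among members that passed, had at least 5 TPM in the higher group and had groups without overlap. Points are single libraries, SOD1-WT in blue and SOD1-K123R in red, and black bars are means of 4. Separate groups were thus required by the rule, and Cd55 spans 278 to 599 TPM within SOD1-WT.

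Among receptors that sense microbial products, levels were low and the members split. Tlr4, the signalling receptor for lipopolysaccharide, read 2.75, 4.70, 5.51 and 3.51 TPM in SOD1-WT and 1.87, 2.28, 1.09 and 1.58 TPM in SOD1-K123R. Every SOD1-K123R library was lower, though by little for the closest pair (log2 fold change -0.91, SE 0.19, adjusted p = 0.000498). Colec12, a scavenger receptor with a collectin domain, fell from 12.3 ± 1.39 to 5.77 ± 0.612 TPM, and Nlrp1a, an inflammasome sensor, fell from 1.49 ± 0.112 to 0.565 ± 0.171 TPM. In contrast Cgas, the sensor of cytosolic DNA that makes cyclic GMP-AMP, read 2.53, 2.93, 2.70 and 2.67 TPM and 9.97, 10.8, 8.81 and 7.62 TPM. All 4 SOD1-K123R libraries stood above the SOD1-WT range (log2 fold change 1.47, SE 0.12, adjusted p = 2.11e-07). Pycard, the inflammasome adapter ASC, rose from 3.56 ± 1.07 to 11.5 ± 1.12 TPM, and Nod2, a sensor of bacterial peptidoglycan, rose from 0.838 ± 0.142 to 1.91 ± 0.337 TPM. Lbp, the protein that carries lipopolysaccharide to its receptor, was more abundant, at 67.02 to 82.7 TPM in SOD1-WT and 65.3 to 83.03 TPM in SOD1-K123R. These ranges overlapped and the gene did not pass (log2 fold change 0.07, SE 0.10, adjusted p = 0.511), but after median-of-ratios scaling it did (log2 fold change 0.55, adjusted p = 0.00273). Tlr3 and Tlr6, Toll-like receptors for double-stranded RNA and for lipopeptides, lay below the filter and were not tested, with means in SOD1-WT and SOD1-K123R of 1.27 to 0.362 TPM and of 1.03 to 0.627 TPM. Of the 48 genes in the list of sensors and co-receptors 11 were tested, of which 4 rose, 6 fell and 1 did not pass. The others that fell, Ptx3, Scara3 and Tlr2, are not members.

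Downstream of the receptors, Irak2, a kinase-like carrier of Toll-like and interleukin 1 receptor signals, read 10.8, 9.11, 11.01 and 10.98 TPM in SOD1-WT and 23.01, 23.3, 19.1 and 23.9 TPM in SOD1-K123R. The groups were separate (log2 fold change 1.02, SE 0.11, adjusted p = 1.24e-06). Tbkbp1, an adapter that binds the kinase TBK1, rose 10.8-fold from a level under 1 TPM, from 0.345 ± 0.0656 to 3.73 ± 0.230 TPM. Trim25, the ubiquitin ligase that activates the RNA sensor RIG-I, rose from 16.4 ± 0.691 to 35.9 ± 1.19 TPM, and Mapkapk3, a kinase activated by p38, rose from 13.6 ± 0.846 to 24.2 ± 0.787 TPM. Moving the other way, Fadd, the death-receptor adapter, fell from 5.85 ± 0.220 to 2.31 ± 0.220 TPM, and Alpk1, a kinase that senses bacterial heptose sugars, fell from 2.62 ± 0.337 to 0.755 ± 0.211 TPM. In the list of 47 adapters and kinases near receptors 7 were tested, of which 4 rose and 3 fell. Irak2 was the only member among them. Ikbkb, Irak4 and Ripk1 fell, and Traf2, Fyn and Tollip rose.

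Genes in the list of feedback inhibitors of inflammatory signalling were mostly higher. All 5 tested members of the list rose, where 44.6% of all genes tested did. Its other member, Nlrc3, lay below the filter and went from 0.48 to 0.13 TPM. Zfp36, tristetraprolin, which destabilizes cytokine mRNAs, read 33.2, 27.8, 28.01 and 36.2 TPM in SOD1-WT and 84.6, 77.9, 90.5 and 68.8 TPM in SOD1-K123R. The groups were far apart (log2 fold change 1.34, SE 0.11, adjusted p = 1.99e-07). Dusp10, a phosphatase that switches off p38 and JNK, rose from 7.06 ± 0.561 to 15.98 ± 2.11 TPM. Cyld, a deubiquitinase that removes signalling ubiquitin chains, rose from 20.6 ± 3.45 to 39.98 ± 3.96 TPM, and Tnip2, a protein that binds A20, rose from 3.90 ± 0.489 to 7.90 ± 0.530 TPM. Tnfaip3, which encodes A20 itself, had the smallest change of the 5, with 41.7, 41.8, 41.5 and 45.4 TPM in SOD1-WT and 59.6, 56.4, 55.6 and 51.2 TPM in SOD1-K123R. Its groups were still separate (log2 fold change 0.38, SE 0.08, adjusted p = 0.000615). Over the whole list, members or not, 12 of 16 tested rose, 2 fell and 2 did not pass, and the median log2 fold change was 0.72. Those that fell were Tnip3, another A20-binding inhibitor (59.5 to 15.0 TPM), and Nr1h3, the liver X receptor alpha (5.57 to 1.65 TPM). Dusp2 and Nfkbib, an inhibitor of NF-kB, did not pass. Members outside that list, picked after their values were seen, went both ways. Rabgef1, which limits signalling from endosomes, rose from 21.4 ± 0.477 to 35.9 ± 1.75 TPM, and Nfkbil1, an IkB-like protein, rose from 14.8 ± 3.29 to 24.2 ± 3.26 TPM. Others with a term for restraint of a response fell, among them Acod1 (26.0 to 3.98 TPM), Angpt1 (19.2 to 4.66 TPM) and Il20rb (3.95 to 0.690 TPM). The GO term negative regulation of inflammatory response gave a more divided picture, with 4 of 6 tested members higher (Adora2a, Metrnl, Zfp36 and Rabgef1) and Pbk and Hgf, hepatocyte growth factor, lower.

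**Figure D3:**
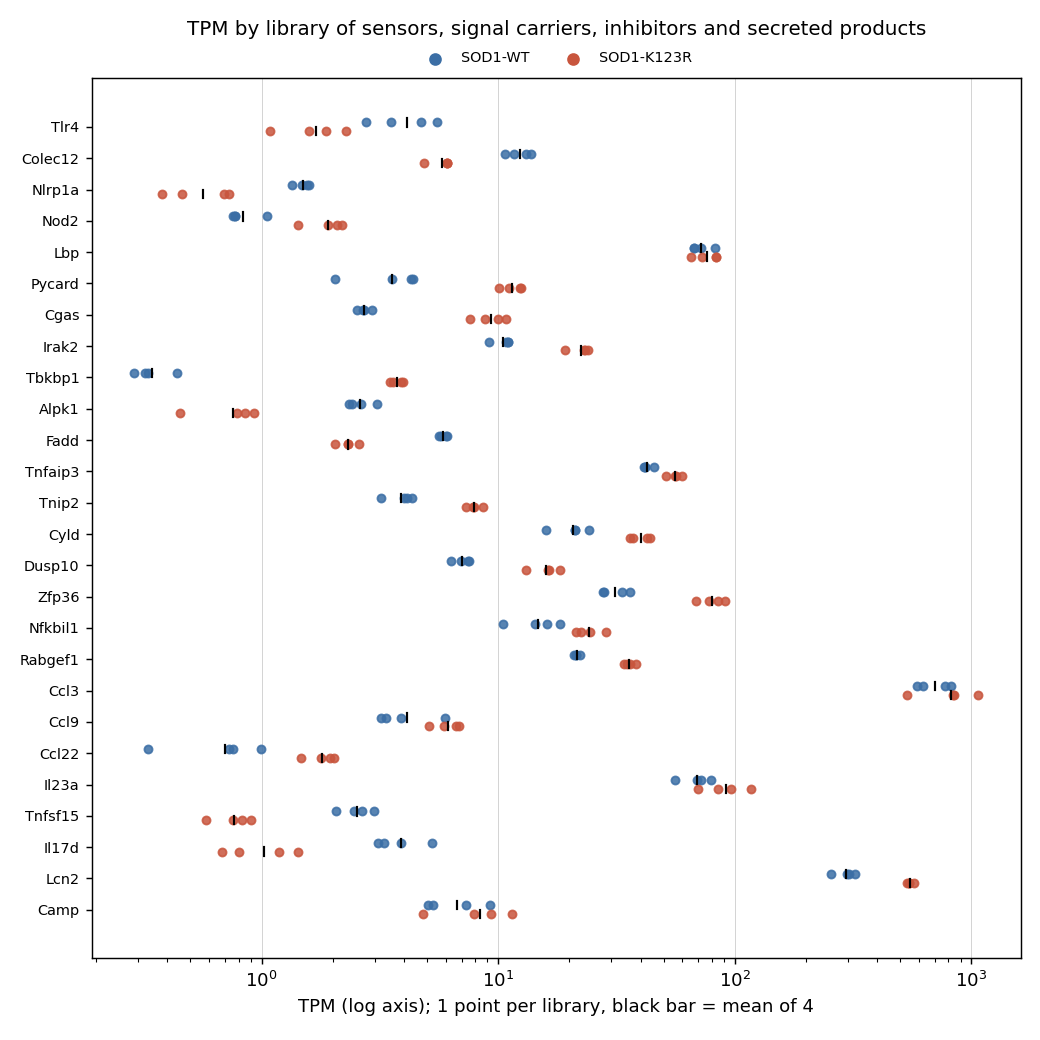
TPM by library (x axis, log scale) for 26 members that sense microbial products, carry or limit the signal, or are secreted. Points are single libraries, SOD1-WT in blue and SOD1-K123R in red, and black bars are means of 4. The inhibitors shown, from Tnfaip3 to Rabgef1, are to the right in SOD1-K123R, whereas Ccl3, Lbp and Camp overlap. Nfkbil1 and Rabgef1 are outside the inhibitor list and were chosen after their values were seen. Pbk and Hgf, which hold the term negative regulation of inflammatory response and fell, are not shown, nor is Acod1, which also fell.

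Promoters were searched for the binding motif of NF-kB, since several of these genes are textbook NF-kB targets. RefSeq promoters (GRCr8 assembly, 250 bases before to 50 after the start) were matched to 117 of the 150 members. Forms of the motif searched were GGGA, any 2 bases, TTCC, and GGG, any 2 bases, TTTCC, which can overlap each other. Either was found on either strand in 9 of these 117 (7.69%) and in 823 of all 33469 promoters (2.46%). It was present in 4 of 39 matched members that rose and in 1 of 42 that fell. Stretches around the matches in these 5 genes show how the sites lie, read on the gene's strand with the match in capitals. Tnfaip3 holds 2 matches 2 bases apart, within 46 to 67 bases of its start (chr1:15543995-15544076, minus strand). Lcn2 is at chr3:36081983-36082030 (minus strand), Tbkbp1 at chr10:82630928-82630997 (minus strand), Ccl9 at chr10:68868944-68869013 (minus strand) and Dus2, which fell, at chr19:50821365-50821434 (plus strand).
Tnfaip3: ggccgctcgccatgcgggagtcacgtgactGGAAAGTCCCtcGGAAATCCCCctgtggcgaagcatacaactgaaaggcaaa
Lcn2: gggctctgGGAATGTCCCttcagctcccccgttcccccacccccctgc
Tbkbp1: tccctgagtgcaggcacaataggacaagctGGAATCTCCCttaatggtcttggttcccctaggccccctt
Ccl9: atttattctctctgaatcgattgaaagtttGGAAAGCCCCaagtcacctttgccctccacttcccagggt
Dus2: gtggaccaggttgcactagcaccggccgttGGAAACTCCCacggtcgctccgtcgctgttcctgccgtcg
Each match is the motif read on the opposite strand, and it is a match of letters only. Dus2 encodes an enzyme that modifies transfer RNA and fell from 8.38 ± 0.715 to 2.88 ± 0.326 TPM. Other motifs were searched on both strands in the same way. AP-1, TGANTCA, was in 4 of 39 matched members that rose and 1 of 42 that fell (7.33% of all promoters). CRE, TGACGTCA, was in 2 and 1 (1.83% of all promoters), and the E-box CACGTG was in 5 and 0 (6.42% of all promoters).

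Of 5 chemokines tested among the members, 2 rose and 3 did not pass. Ccl3, a chemokine for monocytes and the most abundant member, read 623, 770.0, 821 and 589 TPM in SOD1-WT and 848, 838, 1069.9 and 534 TPM in SOD1-K123R. SOD1-K123R replicate 4 was the lowest of all 8 libraries, the groups overlapped and the gene did not pass (log2 fold change 0.20, SE 0.18, adjusted p = 0.294). Without that library it passed (log2 fold change 0.40, adjusted p = 0.015), as it did under scaling by median of ratios (log2 fold change 0.68, adjusted p = 0.00526). Xcl1, a lymphocyte-attracting chemokine, and Cxcl14, a chemokine of epithelia and stroma, stayed low and did not pass (log2 fold changes 0.14 and 0.39), Cxcl14 with 0.65 to 7.68 TPM within SOD1-K123R alone. Xcl1 passed under scaling by median of ratios (log2 fold change 0.47, adjusted p = 0.0308) and after quantile normalization (log2 fold change 0.46, adjusted p = 0.0446). Ccl9, an inflammatory CC chemokine, rose from 4.11 ± 1.26 to 6.12 ± 0.784 TPM with overlapping groups, and Ccl22, which attracts regulatory T cells, from 0.703 ± 0.274 to 1.80 ± 0.253 TPM. The remaining 3 tested chemokines of the list, Ccl2, Cklf and Cxcl12, are not members and fell.

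Il23a, the p19 subunit of interleukin 23, read 56.04, 72.2, 69.4 and 79.1 TPM in SOD1-WT and 96.5, 84.6, 117 and 69.7 TPM in SOD1-K123R. The groups overlapped, and its pass was marginal (log2 fold change 0.39, SE 0.15, adjusted p = 0.0231). It was lost without SOD1-WT replicate 1 (adjusted p = 0.0647), SOD1-K123R replicate 1 (0.0578) or SOD1-K123R replicate 3 (0.0849), and after quantile normalization (0.199). Tnfsf15, the TNF-family cytokine TL1A, fell from 2.54 ± 0.385 to 0.767 ± 0.137 TPM, and Il17d, an interleukin 17 family cytokine, fell from 3.88 ± 0.958 to 1.02 ± 0.341 TPM. Nampt, which is secreted as a cytokine besides making NAD inside cells, rose from 30.7 ± 5.53 to 49.1 ± 5.16 TPM. In the list of interleukin, TNF and CSF family cytokines 8 genes were tested, of which 2 rose, 5 fell and 1 did not pass. Members below the filter included Tnfsf11, the osteoclast factor RANKL, listed at 0.39, 0.42, 0.42 and 0.28 TPM in SOD1-WT and 0.05, 0.00, 0.00 and 0.00 TPM in SOD1-K123R. Ltb, lymphotoxin beta, went from 0.220 to 0.865 TPM.

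In the list of acute-phase, antimicrobial and alarmin proteins 5 genes were tested, of which 1 rose, 2 fell and 2 did not pass. Those that fell, Orm1 (109 to 69.8 TPM) and Hmgb2 (54.8 to 28.4 TPM), are not members. The 1 that rose was Lcn2, lipocalin 2, which starves bacteria of iron. It read 304, 321, 256 and 298 TPM in SOD1-WT and 543, 575, 533 and 547 TPM in SOD1-K123R. The groups were well separated (log2 fold change 0.90, SE 0.08, adjusted p = 4.53e-07). Wfdc21, a small whey acidic protein, read 299, 324, 216 and 182 TPM and 357, 355, 471 and 446 TPM. The groups did not overlap but the spread was wide (log2 fold change 0.70, SE 0.17, adjusted p = 0.0016), and quantile normalization ended the call (log2 fold change 0.35, adjusted p = 0.0975). Camp, the antimicrobial cathelicidin, and Hpx, the heme-binding hemopexin, overlapped and did not pass (log2 fold changes 0.26 and 0.10). Camp passed without SOD1-K123R replicate 2 (log2 fold change 0.47, adjusted p = 0.0364). With libraries scaled by median of ratios both passed, at log2 fold changes of 0.68 for Camp and 0.45 for Hpx. Hpx also passed after quantile normalization (log2 fold change 0.43, adjusted p = 0.00646). Rpl30l2, a copy of ribosomal protein L30 that enters through an antimicrobial annotation, rose from 402 ± 34.4 to 579.8 ± 44.3 TPM, which quantile normalization ended (log2 fold change 0.10, adjusted p = 0.328). Its reads may be shared with near-identical ribosomal protein copies. Chi3l1, a secreted chitinase-like glycoprotein of chondrocytes and macrophages, rose from 6.08 ± 1.28 to 10.9 ± 0.580 TPM.

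Of 5 cytokine and chemokine receptors tested among the members, 2 rose and 3 fell. Il1rl2, the receptor for interleukin 36, read 5.12, 5.26, 6.02 and 6.03 TPM in SOD1-WT and 1.19, 1.03, 0.79 and 1.02 TPM in SOD1-K123R. Every SOD1-K123R library was near 1 TPM (log2 fold change -1.72, SE 0.12, adjusted p = 3.51e-08). Il20rb, a subunit of the receptors for interleukins 20 and 24, fell from 3.95 ± 1.00 to 0.690 ± 0.238 TPM. Ackr4, a receptor that scavenges chemokines without signalling, fell from 6.71 ± 0.891 to 4.00 ± 1.22 TPM, with overlapping groups and a call that median-of-ratios scaling ended (log2 fold change -0.24, adjusted p = 0.0987). Cd40, a TNF-family receptor activated by T cells, rose from 8.92 ± 1.66 to 15.97 ± 1.76 TPM, and Il13ra2, a decoy receptor for interleukin 13, rose from 12.8 ± 5.21 to 23.8 ± 7.54 TPM with overlapping groups. Of the 85 cytokine and chemokine receptors listed 15 were tested, of which 7 rose, 7 fell and 1 did not pass.

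Receptors for prostaglandins and the complement genes among the members were lower. Ptgfr, the receptor for prostaglandin F2 alpha, read 60.8, 80.2, 88.5 and 93.6 TPM in SOD1-WT and 25.2, 30.2, 23.97 and 24.9 TPM in SOD1-K123R. The SOD1-WT libraries varied more, but all stood above the SOD1-K123R range (log2 fold change -1.58, SE 0.13, adjusted p = 1.65e-07). Ptgir, the prostacyclin receptor, fell from 2.50 ± 0.389 to 0.757 ± 0.265 TPM, and Ptger1, a prostaglandin E2 receptor below the filter, went from 1.27 to 0.212 TPM. Cd55, decay-accelerating factor, which protects cells from complement, read 278, 421, 599 and 495 TPM and 150.5, 169, 148 and 104 TPM. SOD1-WT ranged widely without reaching the SOD1-K123R values (log2 fold change -1.61, SE 0.21, adjusted p = 8.23e-06). Masp1, a serine protease that starts the lectin pathway of complement, fell from 149 ± 17.8 to 57.9 ± 4.66 TPM. The 5 tested genes of the complement, coagulation and kinin list that are not members went 4 up (Clu, Procr, Cfp and Bdkrb2) and 1 down (Masp2). Gpr4, a receptor that senses extracellular protons, rose from 0.350 ± 0.0739 to 2.03 ± 0.283 TPM, and Ednrb, the endothelin B receptor, rose from 4.74 ± 1.56 to 8.38 ± 2.31 TPM with overlapping groups.

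Genes of antigen presentation and of contact with lymphocytes were mostly higher. Cd80, a costimulatory ligand of CD28 and CTLA-4, read 2.14, 1.71, 1.60 and 1.45 TPM in SOD1-WT and 9.59, 10.3, 7.99 and 6.31 TPM in SOD1-K123R. SOD1-K123R libraries varied but all exceeded SOD1-WT (log2 fold change 1.79, SE 0.15, adjusted p = 2.04e-07). Cd274, the checkpoint ligand PD-L1, read 0.69, 0.84, 1.04 and 0.79 TPM and 5.77, 4.23, 4.13 and 3.54 TPM. Its groups were separate at a low level (log2 fold change 1.55, SE 0.14, adjusted p = 3.46e-07). Icoslg, the ligand of the costimulatory receptor ICOS on T cells, rose from 14.9 ± 2.06 to 43.7 ± 1.71 TPM, and Vsir, the checkpoint protein VISTA, rose from 9.09 ± 1.54 to 17.9 ± 2.64 TPM. Fcgrt, the heavy chain of the neonatal Fc receptor, which recycles antibodies and albumin, rose from 121 ± 11.7 to 222 ± 21.3 TPM. Cd28 itself fell from 6.27 ± 1.68 to 1.84 ± 0.299 TPM, but the table gives that row the biotype lncRNA, so it may not report the mRNA of the costimulatory receptor. Cd74, the invariant chain of MHC class II molecules, read at most 0.53 TPM in any library. In the list of presentation and costimulation genes 13 were tested, of which 11 rose, 1 fell and 1 did not pass, where 44.6% of all genes tested rose and 51.1% fell. The 5 of these that are not members all rose, among them Tap2 and Tapbp, which load peptides on MHC class I.

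MHC class I genes, which carry the name RT1 in the rat, form a family within the members, most of whose rows have no symbol. By the table's descriptions 11 rows are class I heavy chain genes, a grouping made after the members had been seen, and 10 were tested. Of these 8 rose, 1 fell and 1 did not pass, where 44.6% of all genes tested rose and 51.1% fell. Summed over the 10, class I rows read 283 to 368 TPM in SOD1-WT and 509 to 587 TPM in SOD1-K123R, with no overlap between the groups. The sum of all rows of the table was also higher in SOD1-K123R without overlap. The row described as class Ia locus A2 read 51.1, 45.9, 36.3 and 44.4 TPM in SOD1-WT and 84.4, 88.9, 93.8 and 102 TPM in SOD1-K123R. The groups were separate (log2 fold change 1.05, SE 0.11, adjusted p = 1.10e-06). Class Ia locus A1 rose from 57.01 ± 5.08 to 82.1 ± 3.40 TPM. Class I locus CE4 rose from 18.6 ± 2.61 to 45.2 ± 2.75 TPM and locus CE16 from 70.8 ± 8.75 to 124 ± 12.3 TPM. The row described as a counterpart of the mouse Q region gene 10 rose from 60.8 ± 7.17 to 104 ± 7.93 TPM. The tested row named RT1-T24-4 rose from 42.6 ± 4.93 to 66.2 ± 4.89 TPM. Another row of that name, below the filter, went from 0.39 to 0.11 TPM.

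The family was not uniform. RT1-M3-1, a nonclassical gene whose product presents formylated peptides, read 13.8 to 19.2 TPM in SOD1-WT and 16.5 to 22.3 TPM in SOD1-K123R, overlapped and did not pass (log2 fold change 0.14, SE 0.13, adjusted p = 0.295), although it did under scaling by median of ratios (log2 fold change 0.59, adjusted p = 0.00238). RT1-T24-1 read 6.70, 7.28, 9.56 and 5.84 TPM and 1.04, 1.10, 1.13 and 1.07 TPM. Every SOD1-K123R library was lower, within a very narrow range (log2 fold change -1.98, SE 0.14, adjusted p = 4.26e-08). Locus A3 had overlapping groups and passed narrowly (log2 fold change 0.39, adjusted p = 0.0264), and the call was lost on leaving out SOD1-WT replicate 1 or 3 or SOD1-K123R replicate 2 or 3. Class I genes are near-identical copies, and reads split between them make each single row uncertain. Among class I-like ligands for natural killer cells, Micb rose from 0.573 ± 0.463 to 2.68 ± 0.899 TPM, while Raet1ll2, a row of biotype lncRNA, fell from 12.3 ± 2.22 to 3.74 ± 0.839 TPM.

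**Figure D4:**
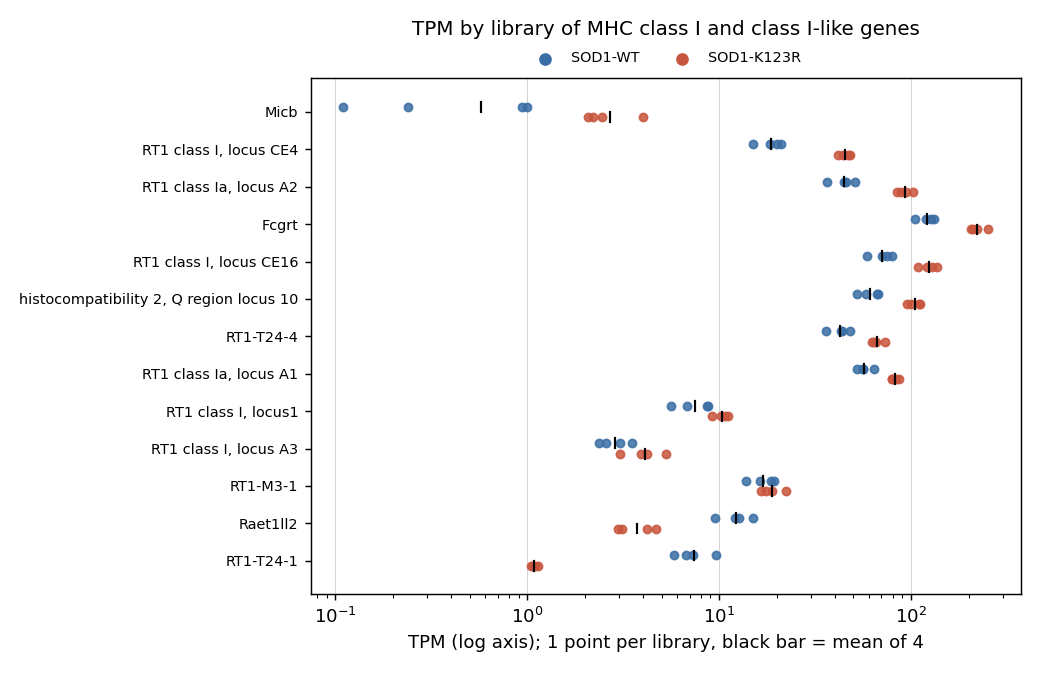
TPM by library (x axis, log scale) for 13 tested MHC class I and class I-like rows, ordered by log2 fold change from Micb (1.25) to RT1-T24-1 (-1.98). Points are single libraries, SOD1-WT in blue and SOD1-K123R in red, and black bars are means of 4. Most class I rows are higher in SOD1-K123R, RT1-M3-1 overlaps and RT1-T24-1 is lower.

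Of 4 members tested in the list of interferon-induced and antiviral genes, 3 rose and 1 fell, where 44.6% of all genes tested rose. Trim25, described above, was among those that rose. Ifit3, an antiviral protein induced by type I interferon, read 2.16, 4.05, 3.88 and 3.37 TPM in SOD1-WT and 0.42, 0.50, 0.10 and 0.38 TPM in SOD1-K123R. Each SOD1-K123R library was at or under 0.5 TPM (log2 fold change -1.68, SE 0.16, adjusted p = 6.65e-07). Trim26, a ubiquitin ligase of antiviral signalling, rose from 14.5 ± 0.755 to 23.8 ± 2.05 TPM. Gbp2, a GTPase induced by interferon gamma, read 20.6, 25.8, 25.5 and 17.9 TPM and 30.1, 28.9, 27.1 and 24.7 TPM. Its groups overlapped (log2 fold change 0.30, SE 0.12, adjusted p = 0.032), and the call was lost on leaving out SOD1-WT replicate 1 or 4 or SOD1-K123R replicate 1, 2 or 3. It was also lost after quantile normalization (log2 fold change 0.27, adjusted p = 0.0654). Pml, the scaffold of nuclear bodies and a member outside that list, fell from 25.6 ± 1.21 to 12.3 ± 1.83 TPM. Over the whole list, members or not, 15 of 19 tested rose and 4 fell. Of all genes tested 44.6% rose and 51.1% fell. Ifit3, Ifit2 and Irgm were among those of the list that fell.

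The core of the interferon-stimulated response element, GAAA, any 2 bases, GAAA on either strand, was found in 9 of the 117 matched promoters (7.69%) and in 3.92% of all promoters. Among members described above with interferon-induced genes, the letters were present in Ifit3 and Pml, which fell, and in Gbp2 and Trim26, which rose. In Pml they lie after the start. The stretches before the start in the other 3 are shown side by side on the gene's strand with the match in capitals. Ifit3 lies at chr1:241527252-241527321 (plus strand), Gbp2 at chr2:234005666-234005726 (plus strand) and Trim26 at chr20:1736464-1736539 (minus strand), where 2 matches overlap.
Ifit3: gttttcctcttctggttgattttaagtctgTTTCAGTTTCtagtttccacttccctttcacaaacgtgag
Gbp2: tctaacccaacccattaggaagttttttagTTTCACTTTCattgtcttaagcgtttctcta
Trim26: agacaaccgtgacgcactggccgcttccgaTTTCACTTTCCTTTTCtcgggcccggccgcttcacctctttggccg
The match lay within 22 to 44 bases before the start in Ifit3 and Gbp2 and 183 to 198 bases before it in Trim26. Over all matched members it was in 5 of 39 that rose and 2 of 42 that fell.

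Members with a term for a cellular response to lipopolysaccharide were mostly higher, and 12 of 15 tested rose, where 44.6% of all genes tested did. Plscr4, a phospholipid scramblase, was the 1 that fell, from 4.34 ± 1.06 to 1.03 ± 0.211 TPM, and Lbp and Camp did not pass. Under the separate term response to lipopolysaccharide 7 of 13 rose, 5 fell and Lbp did not pass. Ggt1, an enzyme of glutathione breakdown and a member through regulation of inflammatory response, did not pass (log2 fold change -0.06) and turned direction under scaling by median of ratios (log2 fold change 0.40, adjusted p = 0.0267). Members with the term inflammatory response were evenly divided, with 8 of 17 higher, 8 lower and Ccl3 not passing. For innate immune response 8 of 16 rose and 6 fell, and for immune response 14 of 24 rose and 6 fell.

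The KEGG annotation, which the choice of members did not use, was present for 62 members. In NF-kappa B signaling 3 of 4 tested members rose, beside 11 of 16 tested genes of that pathway in the whole table. In C-type lectin receptor signaling 4 of 4 members rose, beside 9 of 12 in the whole table. Il23a, whose pass was marginal, was among these 4. Others were divided, and not every pathway counted is given here. In Toll-like receptor signaling 1 of 4 members rose and 2 fell, beside 4 and 5 of 10 in the whole table. The NOD-like receptor pathway gave 4 higher and 3 lower of 8, beside 14 and 13 of 28. Cytokine-cytokine receptor interaction gave 3 and 2 of 7, beside 8 and 11 of 22. MAPK signaling gave 4 and 4 of 8, beside 27 and 13 of 41. All 3 tested members of the cell adhesion set rose, with log2 fold changes of 1.05 to 1.79, whereas 5 of 8 rose and 3 fell over all tested genes of that set. In PI3K-Akt signaling 6 of 8 members fell, beside 25 of 43 in the whole table and 51.1% of all genes tested. Ereg and Angpt1, which signal through receptor tyrosine kinases, were among them. By location, members with the term plasma membrane gave 10 higher and 15 lower of 25, beside 130 and 136 of 277 in the whole table. Those with extracellular space gave 14 higher, 8 lower and 6 not passing of 28, beside 65 higher and 49 lower of 125. Those with mitochondrion gave 1 higher and 4 lower of 5, beside 57 and 75 of 135. The location terms were picked after the members had been seen.

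**Figure D5:**
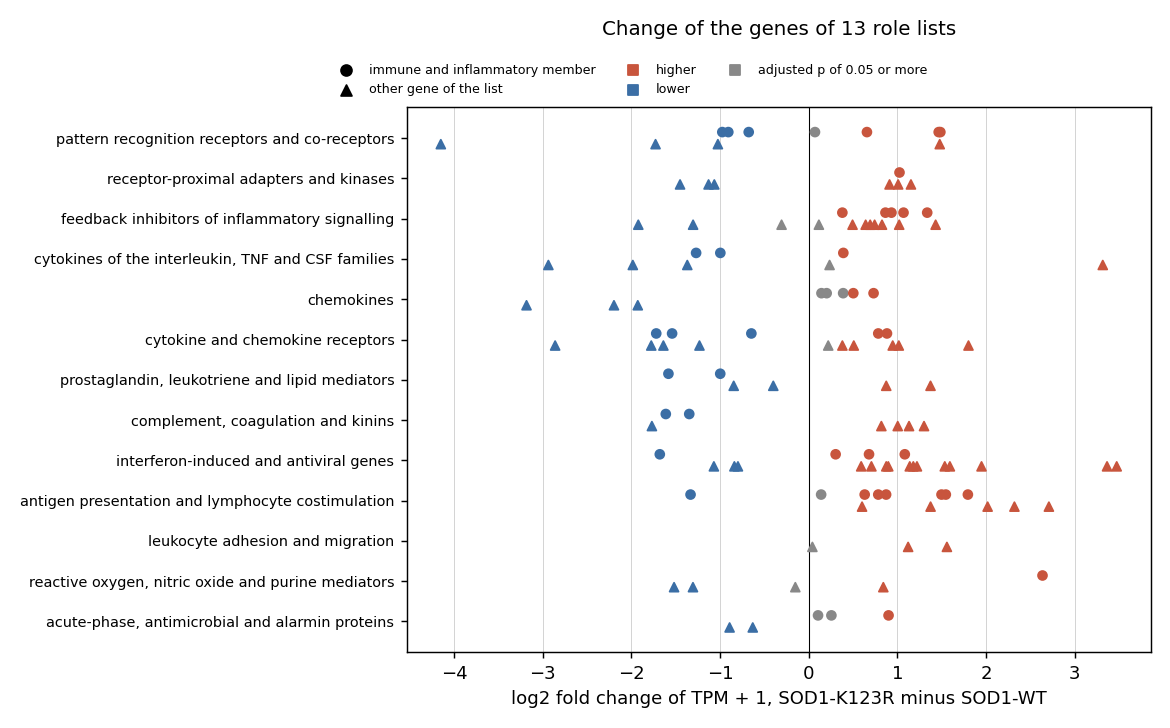
log2 fold change of TPM + 1, SOD1-K123R minus SOD1-WT (x axis), of each tested gene in 13 lists by role (y axis). Circles are members and triangles are other genes of the list, red for higher, blue for lower and grey for an adjusted p of 0.05 or more. All 5 inhibitor members lie between 0.38 and 1.34, while sensors, cytokines and receptors lie on both sides of 0.

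By library, the 150 members together made 4362 to 4852 TPM in SOD1-WT and 5273 to 5790 TPM in SOD1-K123R. That was 2.43% ± 0.0697 of the TPM in the table for SOD1-WT and 2.28% ± 0.0733 for SOD1-K123R (mean ± SD, n = 4 each). The 5 most abundant members of a library held 45.3% to 51.8% of its summed member TPM in SOD1-WT and 45.0% to 50.6% in SOD1-K123R, so sums follow a few genes. The 5 with the highest mean over all libraries were Ccl3, Rpl30l2, Lcn2, Wfdc21 and Cd55. Because these are bulk cultures, a change in how many cells of a type were present and a change of RNA per cell cannot be told apart. Cd68, the leukocyte marker given above, rose in SOD1-K123R from 6.89 to 26.0 TPM, and its part in the changes of these genes was not tested. Of the members below the filter, Inava, an adapter of innate receptor signalling, was among the highest at 0.635 to 1.31 TPM.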

How the data were processed

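RNA from 8 libraries of rat nucleus pulposus cells was sequenced as paired-end reads on an Illumina NovaSeq, per the labels' protocols. The authors deposited 1 gene-level table of TPM, made with RSEM going by its name, and per the file headers it also holds identifiers, biotypes and GO and KEGG terms. DESeq2 is named, per the submitters' processing notes, without a role. No source used here gives the aligner, genome build or annotation, or says whether counting used strand, so overlapping and antisense genes cannot be told apart. Samples were grouped by title, and columns were matched to samples by the library name in the description.

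Genes averaging 1 TPM or more were tested. log2(TPM + 1) was fitted over all of them with limma 3.58.1 (lmFit, then eBayes with its trend option; R 4.3.3), SOD1-K123R minus SOD1-WT, two-sided, with Benjamini-Hochberg adjustment over the 2890 genes. Every log2 fold change is of TPM + 1, so that of a low gene is understated. The fit was also tested on simulated data.

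The members, lists and tests were chosen with earlier results of these data known. By rule the text names members with the 10 largest changes in each direction, up to 4 with the smallest adjusted p of each of 13 role lists and up to 2 of each GO term group, the 5 most abundant, up to 8 that did not pass and 3 below the filter, 64 in all, of which 1 is not reported here; other members, the class I grouping and the location terms were chosen after their values were seen. The 10 largest changes were taken among members that passed, had groups without overlap and had at least 5 TPM in the higher group. Alternatives were another pseudocount (0.1), filters (mean of at least 5 TPM, none), median-of-ratios scaling and quantile normalization. The others were no trend, a replicate block and leaving out each library. Promoter sequences are RefSeq's (GRCr8), matched by symbol or a unique synonym.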

Additional observations from a re-analysis of the deposited data

Results flagged for a closer look

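Each named or tested member was searched in each group for a library standing apart, by Dixon's 95% criterion for 4 values. Of 232 groups 11 held such a library, and chance gives about 1 in 20. In SOD1-WT, Tinagl1, a secreted matrix-associated protein, read 8.90 TPM in replicate 4 against 4.12 to 4.70 in the others of its group. Nod2 read 1.05 TPM in replicate 2 against 0.76 to 0.77, and Irak2 read 9.11 TPM in replicate 2 against 10.79 to 11.01. Mapkapk3 read 12.4 TPM in replicate 3 against 13.9 to 14.2. Tkfc, a triose kinase, read 12.7 TPM in replicate 1 against 9.64 to 10.0, and Tnfaip3 read 45.4 TPM in replicate 4 against 41.5 to 41.8. Plgrkt, a plasminogen receptor, stood apart in replicate 1 of both groups, low in SOD1-WT (10.2 TPM against 16.3 to 16.8) and high in SOD1-K123R (7.39 TPM against 4.85 to 5.18), with the groups still separate.

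In SOD1-K123R, Gfer, a sulfhydryl oxidase, read 38.4 TPM in replicate 4 against 29.5 to 30.1. Gpr4 read 1.61 TPM in replicate 3 against 2.12 to 2.22, and Colec12 read 4.85 TPM in replicate 3 against 6.05 to 6.10. None of these 10 genes lost its call when the library was left out.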

How the results depend on the processing

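The 58 members that rose, 46 that fell and 9 without a pass were followed under 15 alternatives. At a mean of at least 5 TPM, with fewer genes tested, 48 members rose, 25 fell and 5 did not pass, and 897 of all genes fell. With no filter, 19 members did not pass. After median-of-ratios scaling 4 did not pass, 66 rose and 43 fell, and Ggt1 turned from -0.06 to 0.40. After quantile normalization 57 rose, 43 fell and 13 did not pass. Leaving out 1 library gave 55 to 59 members that rose, 46 that fell and 8 to 12 without a pass. With the replicate block 58 rose, 46 fell and 9 did not pass, no member's call changing. Correlations of the deviations of same-numbered libraries were -0.35 to 0.0536, and those of differently numbered libraries were -0.40 to 0.44. With 4 libraries a group these values cannot settle whether the numbers pair the samples. Of 113 members, 96 kept their call under every alternative that tested them and 17 did not. TPM keep no read counts, so depth sets no limit that could be computed.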

Other observations

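Members in none of the role lists that were not described above were also divided. Dysf, dysferlin, a membrane repair protein, fell from 51.7 ± 6.53 to 24.2 ± 1.72 TPM, and Ddx21, an RNA helicase of the nucleolus, fell from 58.9 ± 7.67 to 23.2 ± 3.75 TPM. Fanca, a Fanconi anaemia protein of DNA repair, fell from 4.38 ± 0.591 to 0.845 ± 0.213 TPM, and Exo1, a DNA repair exonuclease, fell from 2.46 ± 0.504 to 1.25 ± 0.212 TPM. Prkdc, the catalytic subunit of DNA-dependent protein kinase, fell from 2.52 ± 0.940 to 1.18 ± 0.416 TPM with overlapping groups, and its call was lost after quantile normalization (log2 fold change -0.38, adjusted p = 0.0545). Lacc1, a laccase-domain enzyme of macrophage metabolism, fell from 4.27 ± 0.468 to 0.623 ± 0.219 TPM, Adamts12, a secreted metalloprotease, from 2.94 ± 0.681 to 0.560 ± 0.193 TPM, and Acer3, an alkaline ceramidase, from 14.9 ± 3.06 to 7.29 ± 1.33 TPM.

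Among those higher, Fgfr2, a fibroblast growth factor receptor, rose from 7.37 ± 0.493 to 17.7 ± 1.97 TPM. Il18bp, the secreted inhibitor of interleukin 18, rose from 1.24 ± 0.252 to 2.35 ± 0.699 TPM, and Cyp26b1, which breaks down retinoic acid, from 9.74 ± 1.69 to 15.99 ± 1.21 TPM. Sbno2, a transcriptional regulator downstream of interleukin 10, rose from 51.05 ± 5.04 to 103 ± 9.22 TPM. Prg4, the joint lubricant lubricin, read 0.92 to 1.78 TPM in SOD1-WT and 1.08 to 2.13 TPM in SOD1-K123R and did not pass (log2 fold change 0.17), but it did under scaling by median of ratios (log2 fold change 0.44, adjusted p = 0.011) and quantile normalization (log2 fold change 0.45, adjusted p = 0.00966). These genes were chosen after their values were seen.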
